A study of Mus musculus with 8 samples.

Results

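The genes described here encode lysosomal enzymes, lysosomal membrane proteins and their regulators, among them the transcription factors Tfeb and Tfe3. The list names 37 genes, and a gene was measured where at least 1 probe set of the array carries its symbol alone in the platform annotation. That held for 36 of the 37, with 77 probe sets, out of 18193 genes and 34945 probe sets in all. Cd63 was not analysed here. The 36 genes fall into 9 cathepsins, 9 glycosidases and sulfatases, 7 lipid and peptide hydrolases and their activators, 7 membrane and proton pump proteins, and 4 regulators and adaptors.

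RNA from 8 samples of mouse cells was hybridised to Affymetrix arrays. They include 4 cell lines, numbered 3, 4, 5 and 6, each derived from a separate tumour that JoMa1 cells transfected with MYCN had formed in an immunocompromised mouse. The library labelled GFP-transfected is a single array, described by its label as JoMa1 cells with a GFP control transfectant. Its Mycn level, given below, goes against that label. The remaining 3 arrays, numbered 1 to 3, are parental JoMa1, a neural crest precursor line. JoMa1 is known to carry a MYC fusion protein that tamoxifen activates, so all 3 groups would share it. Whether tamoxifen was given, which species the transfected MYCN came from and which strain of mouse hosted the tumours are not given in the sources used here. All cells were harvested in culture at 80% confluency. MYCN encodes a MYC family transcription factor that is amplified in high-risk neuroblastoma, a tumour of neural crest origin, and the comparison asks how the tumour-derived lines differ from their precursor cells.

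Lysosomes are acidic compartments in which imported and cell-own proteins, glycans and lipids are broken down. A rotary proton pump, the V-ATPase, acidifies them, and soluble enzymes reach them mostly through mannose 6-phosphate receptors. The MiT/TFE transcription factors, which include TFEB, TFE3 and MITF, bind an E-box in the promoters of many lysosomal genes when they are in the nucleus, and mTORC1 kinase on the lysosome keeps them in the cytoplasm by phosphorylation. MYC and MYCN with their partner MAX bind the same E-box core, so both kinds of factor can meet at these promoters.

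The E-box core CACGTG, which reads the same on both strands, was therefore searched in RefSeq promoter windows of the assembly GRCm38.p6. Each window runs from 250 bases before to 50 bases after an annotated start. At least 1 window was given for 33 of the 37 listed genes, Cd63 included, and for none of Ctsb, Ctsh, Asah1 and Atp6v1h. The core stood in a window of 11 of these 33 genes (33.3%), against 8.09% of all 27025 genes with a window. The longer form TCACGTGA, which contains the core and resembles the element described for lysosomal genes, stood in 5 of 33 genes (15.2%), against 1.12% of all genes. These 5 are Ctsa, Gla, Ctsd, Mcoln1 and Atp6v0d1. The other 6 genes with the core are Lamp1, Ctsf, Ctsl, Glb1, Arsa and Sgsh. The element that the longer form resembles was described for lysosomal genes, so its higher share in this list is no independent result. The comparison genes were not matched to the list. A match is a description of the letters and shows no binding.

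The windows of the 5 genes with the longer form are printed, and that of Lamp1 because it holds 4 copies of the core. Of the windows of Ctsa, a serine carboxypeptidase that also protects other lysosomal enzymes, the one with the core lies at chr2:164833523-164833822 on the plus strand, and another, at chr2:164832622-164832921, holds none and is not printed. The window of Gla, alpha-galactosidase A, lies at chrX:134600956-134601255 on the minus strand. Ctsd, an aspartic protease, has its window at chr7:142387778-142388077 on the minus strand. The window of Mcoln1, a cation channel that lets calcium out of lysosomes, is chr8:3500269-3500568 on the plus strand. For Atp6v0d1, a subunit of the membrane sector of the proton pump, it is chr8:105566015-105566314 on the minus strand. Lamp1, an abundant glycoprotein of the lysosomal membrane, has the window chr8:13158911-13159210 on the plus strand. Each is written 5′ to 3′ along the gene's strand, with every CACGTG in capitals.
Ctsa: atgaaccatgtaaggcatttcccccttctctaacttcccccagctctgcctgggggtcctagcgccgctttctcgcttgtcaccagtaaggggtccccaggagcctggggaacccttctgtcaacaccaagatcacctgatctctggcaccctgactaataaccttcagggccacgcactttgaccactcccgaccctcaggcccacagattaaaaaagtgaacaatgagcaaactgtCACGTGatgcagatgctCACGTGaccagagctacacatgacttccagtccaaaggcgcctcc
Gla: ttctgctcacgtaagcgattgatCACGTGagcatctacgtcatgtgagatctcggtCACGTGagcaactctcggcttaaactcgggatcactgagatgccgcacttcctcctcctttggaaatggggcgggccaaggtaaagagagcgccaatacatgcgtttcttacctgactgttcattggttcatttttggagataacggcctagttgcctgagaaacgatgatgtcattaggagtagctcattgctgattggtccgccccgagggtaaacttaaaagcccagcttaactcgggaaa
Ctsd: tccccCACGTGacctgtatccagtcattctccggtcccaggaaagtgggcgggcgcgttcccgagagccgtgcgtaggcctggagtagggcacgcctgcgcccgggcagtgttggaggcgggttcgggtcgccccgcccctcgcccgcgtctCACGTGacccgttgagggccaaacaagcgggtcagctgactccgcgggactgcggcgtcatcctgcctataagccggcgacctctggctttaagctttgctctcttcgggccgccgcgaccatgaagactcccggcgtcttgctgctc
Mcoln1: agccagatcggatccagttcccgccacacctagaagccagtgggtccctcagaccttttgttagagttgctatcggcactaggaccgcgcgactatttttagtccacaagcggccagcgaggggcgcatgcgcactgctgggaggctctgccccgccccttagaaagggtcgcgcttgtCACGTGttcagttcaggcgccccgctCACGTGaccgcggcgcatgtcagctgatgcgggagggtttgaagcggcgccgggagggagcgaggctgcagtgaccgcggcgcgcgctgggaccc
Atp6v0d1: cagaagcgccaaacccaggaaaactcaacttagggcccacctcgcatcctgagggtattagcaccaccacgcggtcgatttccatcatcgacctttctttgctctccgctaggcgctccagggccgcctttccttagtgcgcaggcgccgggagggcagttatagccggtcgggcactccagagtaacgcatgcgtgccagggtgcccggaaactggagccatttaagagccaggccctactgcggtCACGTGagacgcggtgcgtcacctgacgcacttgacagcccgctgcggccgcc
Lamp1: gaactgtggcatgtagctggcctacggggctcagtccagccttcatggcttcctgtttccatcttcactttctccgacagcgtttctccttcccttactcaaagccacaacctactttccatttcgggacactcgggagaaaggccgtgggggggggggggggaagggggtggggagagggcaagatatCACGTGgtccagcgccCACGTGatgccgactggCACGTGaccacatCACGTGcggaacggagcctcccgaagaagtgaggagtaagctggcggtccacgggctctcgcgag
With the start base counted as 1 and the base before it as -1, the cores of Ctsa begin at -12 and 6, and that of Atp6v0d1 at -3. Those of Gla begin farther upstream, at -227 and -194. The Lamp1 window packs its copies at -61, -45, -28 and -15.

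Levels are the authors' RMA values on the log2 scale, on which a difference of 1 is a 2-fold change, and errors are SDs within a group or standard errors (SE) from the fit. A gene was called where limma's adjusted p, over all 18193 genes, was under 0.05. Array medians ran from 6.26 to 6.30, and the number of arrays limits the precision. The transfected gene was checked first. The brightest Mycn probe set averaged 14.17 in tumour lines and 7.42 in parental arrays, and it read 11.73 in the library labelled GFP-transfected, which goes against that label. Every direction drawn from this library therefore has that limit. Another Mycn probe set differed from the parental mean by -3.53 in tumour lines and by -3.80 in that library. The 3′ minus 5′ difference of Actb, a sign of RNA quality, was 0.516 to 0.613 in tumour lines, 0.616 in the library labelled GFP-transfected and 0.626 to 0.641 in parental arrays. For Gapdh it was 0.092 to 0.151 in tumour lines, 0.075 in the library labelled GFP-transfected and 0.053 to 0.078 in parental arrays. The part of RNA quality in the results below was not tested. Of 12 neural crest markers, Foxd3 (4.68 in tumour lines, 4.56 in the library labelled GFP-transfected and 4.59 in parental arrays) and Ngfr (5.36, 5.56 and 5.40 in these groups) lay below the array median on all 8 arrays, and the other 10 did not.

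In the tumour lines 12 of the 36 lysosomal genes rose, 9 fell and 15 were not called. The called share was 58.3%, against 36.0% of all genes in the same comparison, where 16.6% were called higher and 19.4% lower. Genes with stronger signal are called more often: among genes above the median mean level it was 19 of 28 lysosomal genes (67.9%), against 54.5% of all genes there. With the brightest probe set of each gene, the differences ran from -0.98 for Scarb2 to 0.80 for Cd68. By that measure 0 of the 36 changed by 2-fold or more, against 8.86% of all genes that were called and did. Another probe set gave 1.19 for Gm2a and 0.88 for Ctsb. The median difference was 0.19, against 0.01 over all genes, but it was 0.10 with probe sets averaged per gene and 0.037 among genes above the median level. All tumour lines lay above all parental arrays for 15 lysosomal genes (21.2% of all genes) and below them for 10 (23.2% of all genes). These 25 make up 69.4%, against 44.4% of all genes. Fewer cells with a transcript and less of it per cell cannot be told apart in these bulk samples.

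**Figure D1:**
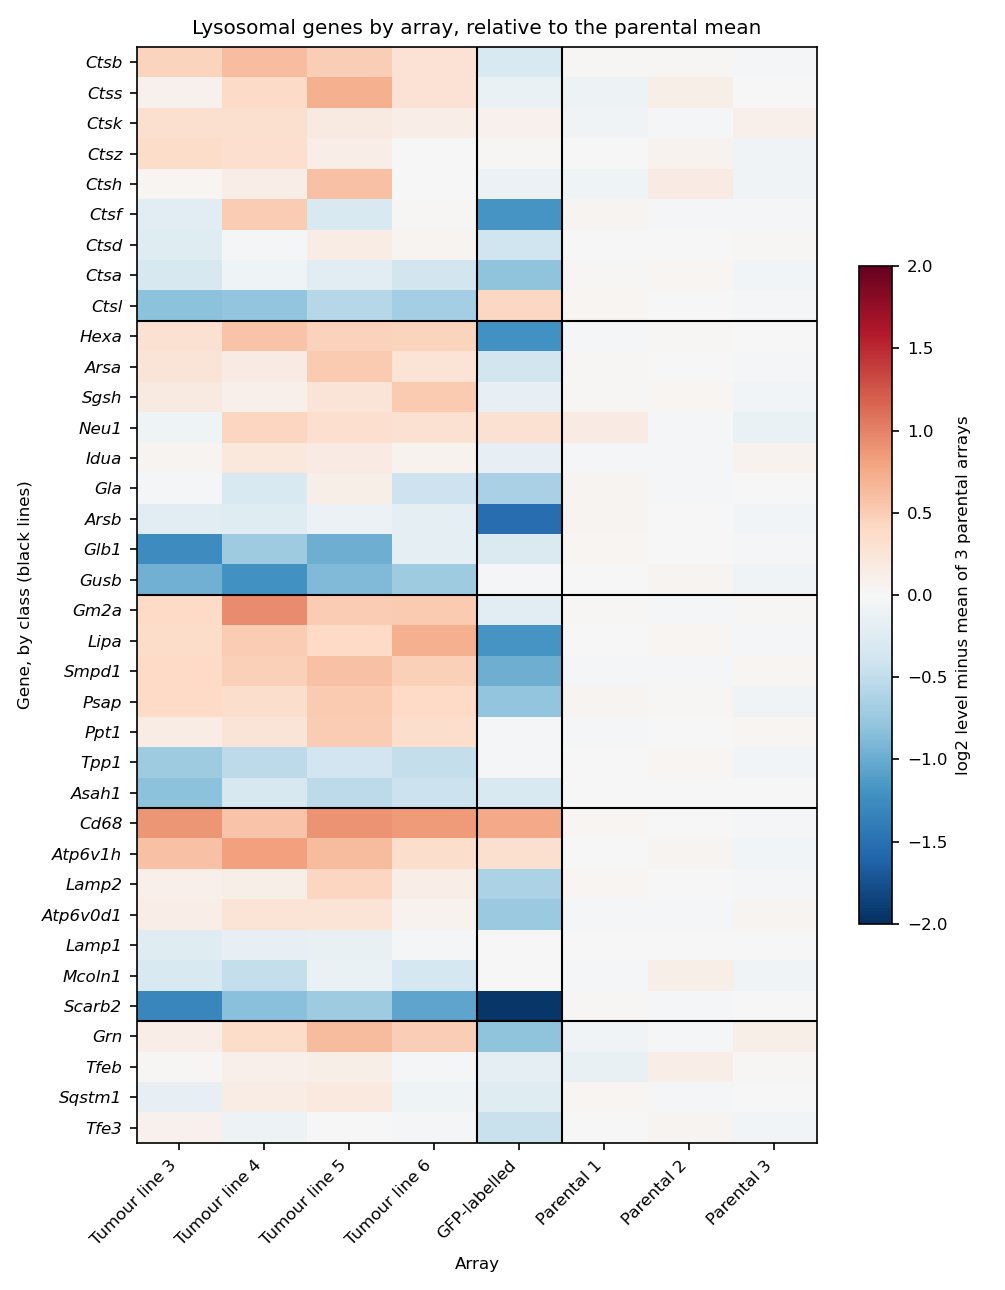
Level of each of the 36 lysosomal genes on each of the 8 arrays, as the log2 difference from the mean of the 3 parental arrays (colour scale), with black lines between the classes. Columns run from tumour lines 3 to 6 through the library labelled GFP-transfected to parental arrays 1 to 3. Differences of both signs occur among the tumour lines in each class, whereas the GFP-labelled column is lowest of the 8 arrays for 24 genes.

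Among the cathepsins, proteases that degrade proteins inside lysosomes, 2 rose and 2 fell of 9 (22.2% each). Over all genes 16.6% were called higher and 19.4% lower, so these counts lie near that share. Ctsb, a cysteine protease, read 12.43, 12.60, 12.48 and 12.28 in tumour lines 3, 4, 5 and 6, 11.68 in the library labelled GFP-transfected and 12.01, 12.01 and 11.95 in the parental arrays. Its tumour lines all lay above the parental arrays, a difference of 0.46 (SE 0.08, 1.38-fold, limma adjusted p = 0.00303). Of its 4 other probe sets, 3 were called higher (0.58 to 0.88) and 1 was not called (0.05). Ctsl, a cysteine protease that also acts outside the lysosome, went the other way. It read 12.71, 12.75, 12.96 and 12.85 in tumour lines, 13.95 in the library labelled GFP-transfected and 13.56, 13.53 and 13.50 in parental arrays. The groups did not overlap, and the tumour lines were lower by 0.71 (SE 0.08, 1.64-fold, limma adjusted p = 0.0002). The other probe set of Ctsl, at a weak signal, differed by 0.30 and was not called, and with the mean of both the call ended (-0.21, adjusted p = 0.0599).

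Ctsk, the collagen-degrading cathepsin of osteoclasts, rose by 0.24 (SE 0.08, limma adjusted p = 0.0488). Ctsa fell by 0.25 (SE 0.08, adjusted p = 0.0465). Both calls sit at the threshold. That of Ctsk ended without any 1 of the 3 parental arrays or without tumour line 3, 4 or 5 (adjusted p = 0.0506 to 0.166), and that of Ctsa without any 1 of the 3 parental arrays or without tumour line 3, 5 or 6 (adjusted p = 0.0696 to 0.135). With probe sets averaged Ctsa gave -0.10 (adjusted p = 0.346), and with the GFP-labelled library counted among the parental arrays -0.05 (adjusted p = 0.881). Ctsd was not called. It read 11.59, 11.80, 11.97 and 11.87 in tumour lines, 11.42 in the library labelled GFP-transfected and 11.81, 11.82 and 11.85 in parental arrays, a difference of -0.02 (SE 0.09, limma adjusted p = 0.901). The tumour lines spread on both sides of the parental arrays. Ctsf, a cysteine protease mutated in a human lysosomal storage disease of neurons, had a mean difference of 0.00 (SE 0.18), but its tumour lines ranged from 7.14 to 7.95 around parental values of 7.42 to 7.51. The leukocyte protease Ctss differed by 0.37 (SE 0.14, adjusted p = 0.0739), Ctsh by 0.19 and Ctsz by 0.21, and none of the 3 was called. These 3 lay below the array median on all 8 arrays, so their differences may be understated, as RMA draws weak signals together. A second probe set of Ctsz was called higher (0.51, adjusted p = 0.0241).

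Of the 9 glycosidases and sulfatases, which take sugars and sulfate groups off glycans and glycolipids, 2 rose and 3 fell. These make up 22.2% and 33.3%, against 16.6% and 19.4% of all genes. The largest fall was that of Gusb, beta-glucuronidase. It read 9.83, 9.58, 9.91 and 10.09 in tumour lines, 10.76 in the library labelled GFP-transfected and 10.81, 10.84 and 10.73 in parental arrays. The tumour lines stood apart below the other arrays, by 0.94 against the mean of the parental group (SE 0.11, 1.92-fold, limma adjusted p = 0.000338). The other Gusb probe set differed by 0.10 and was not called, and the mean of both gave -0.42 (adjusted p = 0.00277). Glb1, the beta-galactosidase whose activity is used as a stain for senescent cells, read 8.0, 8.55, 8.28 and 9.08 in tumour lines, 8.97 in the library labelled GFP-transfected and 9.30, 9.25 and 9.24 in parental arrays. All tumour lines were lower, but line 6 lay only just below the parental arrays, and line 3 lay farthest. The difference was -0.79 (SE 0.22, limma adjusted p = 0.0221), and it was not called without any 1 of the 3 parental arrays (adjusted p = 0.0653 to 0.0765).

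Hexa, the alpha subunit of the hexosaminidase that degrades GM2 ganglioside, was the clearest rise in this class. It read 11.32, 11.58, 11.46 and 11.46 in tumour lines, 9.80 in the library labelled GFP-transfected and 10.98, 11.03 and 11.01 in parental arrays. The tumour lines lay above the parental arrays by 0.45 (SE 0.08, 1.36-fold, limma adjusted p = 0.0021), with the library labelled GFP-transfected far below both. Counting that library among the parental arrays gave 0.75 and ended the call (adjusted p = 0.0649). Arsa, the sulfatase that acts on sulfatide, rose by 0.30 (SE 0.09, adjusted p = 0.0306). Arsb, a sulfatase of dermatan and chondroitin sulfate, fell by 0.20 (SE 0.07, adjusted p = 0.0479). The Arsb call ended without any 1 of the 3 parental arrays or without tumour line 3, 4 or 6 (adjusted p = 0.0738 to 0.165). Its 2 other probe sets gave -0.01 and 0.05, the mean of all 3 gave -0.05 (adjusted p = 0.574), and its sign turned when the GFP-labelled library was counted among the parental arrays (0.19, adjusted p = 0.732). Arsa was not called without any 1 of the 3 parental arrays or without tumour line 6 (adjusted p = 0.0516 to 0.0958). Not called were Gla (-0.16), the sialidase Neu1 (0.24), the iduronidase Idua (0.13) and the heparan sulfamidase Sgsh (0.26, adjusted p = 0.0805).

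Every gene of the class of lipid and peptide hydrolases and activators was called, 5 higher and 2 lower of 7, beside 36.0% called over all genes and 54.5% over genes above the median level. Gm2a, the activator protein that presents GM2 ganglioside to the hexosaminidase, read 9.70, 10.26, 9.81 and 9.83 in tumour lines, 9.10 in the library labelled GFP-transfected and 9.33, 9.26 and 9.33 in parental arrays. All tumour lines were higher, and line 4 was the highest (difference 0.59, SE 0.13, 1.51-fold, limma adjusted p = 0.00661). Its other probe sets gave 1.19, which was called, and 0.34, which was not. Lipa, the acid lipase that frees cholesterol and fatty acids from lipoproteins, read 9.98, 10.12, 10.01 and 10.32 in tumour lines, 8.43 in the library labelled GFP-transfected and 9.61, 9.65 and 9.57 in parental arrays. The groups were separate, with tumour lines above by 0.50 (SE 0.09, 1.41-fold, limma adjusted p = 0.00311) and the library labelled GFP-transfected lowest. Counted as for Hexa, Lipa gave 0.79 (adjusted p = 0.0522). Smpd1, acid sphingomyelinase, read 10.31, 10.39, 10.50 and 10.39 in tumour lines, 8.93 in the library labelled GFP-transfected and 9.89, 9.89 and 9.96 in parental arrays. It showed the same order of groups, with a difference of 0.48 (SE 0.07, 1.4-fold, limma adjusted p = 0.000795).

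Psap, the precursor of the saposins that help break down sphingolipids, rose by 0.42 (SE 0.07, limma adjusted p = 0.00212), and its other probe set by 0.62. Ppt1, which removes fatty acids from proteins, rose by 0.32 (SE 0.09, adjusted p = 0.024). None of the 4 other probe sets of Ppt1 was called (0.00 to 0.17), and the call ended with the mean of its probe sets (0.13, adjusted p = 0.117), without any 1 of the 3 parental arrays or without tumour line 6 (adjusted p = 0.0536 to 0.0811). The 2 falls were those of Asah1, the acid ceramidase, and Tpp1, a tripeptidyl peptidase. Asah1 read 10.86, 11.35, 11.15 and 11.24 in tumour lines, 11.37 in the library labelled GFP-transfected and 11.67, 11.69 and 11.67 in parental arrays. Its tumour lines were all lower, by 0.53 on average (SE 0.11, 1.44-fold, limma adjusted p = 0.00643). Tpp1 fell by 0.52 (SE 0.09, 1.44-fold, adjusted p = 0.00203), and its other probe set by 0.46. Smpd1, whose enzyme makes ceramide, was higher and Asah1, whose enzyme degrades it, was lower in the tumour lines, at the level of RNA. In the library labelled GFP-transfected both lay below the parental mean (Smpd1 -0.98, Asah1 -0.31, the latter not called). Ceramide was not measured.

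**Figure D2:**
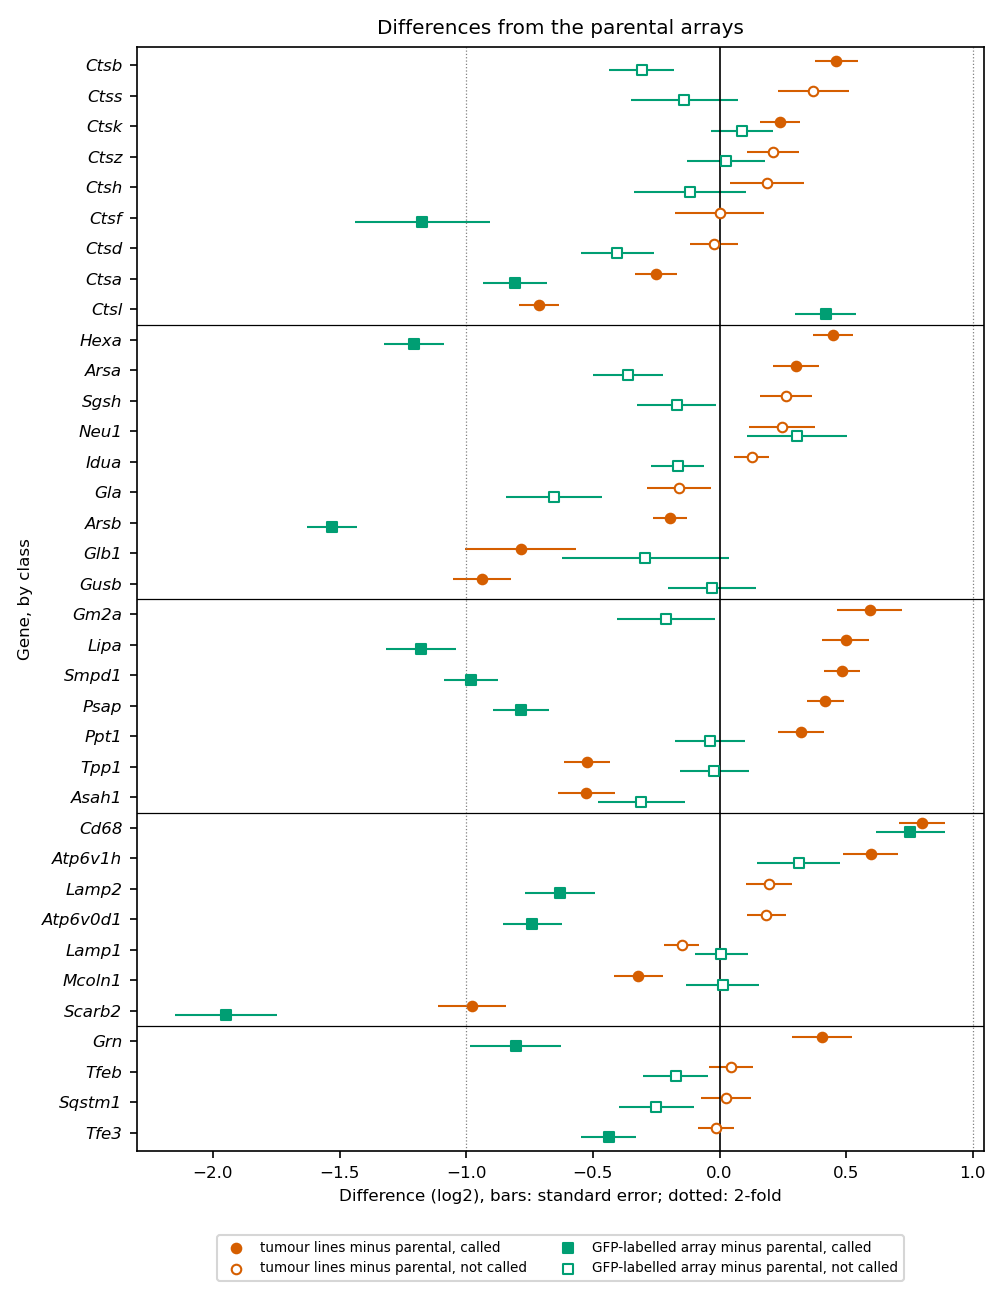
Differences on the log2 scale for each of the 36 lysosomal genes, by class, with the SE as a bar and dotted lines at 2-fold. Orange circles are tumour lines minus parental arrays, green squares the library labelled GFP-transfected minus parental arrays, filled where limma called the gene. Both sets share the 3 parental arrays. Orange circles stay between -0.98 and 0.80, and 5 filled green squares lie below -1.

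Among the 7 measured membrane and proton pump proteins 2 rose and 2 fell (28.6% each), against 16.6% and 19.4% of all genes. Scarb2, the membrane receptor that brings glucocerebrosidase to lysosomes, had the largest change of the 36 genes in both comparisons with the parental arrays. It read 9.23, 9.69, 9.82 and 9.46 in tumour lines, 8.58 in the library labelled GFP-transfected and 10.55, 10.49 and 10.54 in parental arrays. No group overlapped another, and tumour lines were lower than parental arrays by 0.98 (SE 0.13, 1.97-fold, limma adjusted p = 0.000599). A second probe set gave -0.95. When the GFP-labelled library was counted among the parental arrays, the difference was -0.49 and not called (adjusted p = 0.456). Mcoln1 fell by 0.32 (SE 0.10, adjusted p = 0.0301), and was not called without any 1 of the 3 parental arrays or without tumour line 3, 4 or 6 (adjusted p = 0.0547 to 0.118). Leaving out probe sets ending in _x_at or _s_at gave -0.18 for Mcoln1 and ended the call (adjusted p = 0.255).

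Cd68, a heavily glycosylated lysosomal membrane protein used as a macrophage marker, showed the largest rise. It read 6.60, 6.30, 6.62 and 6.58 in tumour lines, 6.48 in the library labelled GFP-transfected and 5.76, 5.72 and 5.69 in parental arrays. The tumour lines and the GFP-labelled library lay together above the parental arrays, and the tumour-line difference was 0.80 (SE 0.09, 1.74-fold, limma adjusted p = 0.000223). Cd68 has 1 probe set, and its parental values lay below the medians of those arrays (6.26 to 6.30), a weak signal. Of 18 other macrophage and leukocyte markers, 2 were higher in tumour lines, Cd14 (1.83) and Lyz2 (0.49), 1 was lower, Cd53 (-0.30), and 15 were not called. The called share was 16.7%, against 36.0% of all genes. With the mean of its probe sets Cd53 gave -0.09 and was not called (limma adjusted p = 0.3). Of the 18, 13 lay below the array median on all 8 arrays. Their summed signal was 1502 to 1742 in tumour lines, 1136 in the library labelled GFP-transfected and 1045 to 1243 in parental arrays. The part of such cells in the Cd68 result was not tested.

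Atp6v1h, a regulatory subunit of the soluble sector of the proton pump, read 10.77, 10.996, 10.80 and 10.52 in tumour lines, 10.49 in the library labelled GFP-transfected and 10.17, 10.23 and 10.13 in parental arrays. All tumour lines were higher, by 0.60 on average (SE 0.11, 1.51-fold, limma adjusted p = 0.0028). Its other probe sets, both dim, were not called, and with the mean of the 3 the call ended (0.24, adjusted p = 0.0732). Atp6v0d1 differed by 0.18 (adjusted p = 0.102). Lamp1 read 12.34, 12.43, 12.44 and 12.55 in tumour lines, 12.60 in the library labelled GFP-transfected and 12.58, 12.59 and 12.60 in parental arrays. Its tumour lines were all lower, but by only 0.15 (SE 0.07, limma adjusted p = 0.14), which was not called. Lamp2, the other main glycoprotein of the lysosomal membrane, read 12.68, 12.70, 13.00 and 12.71 in tumour lines, 11.95 in the library labelled GFP-transfected and 12.61, 12.57 and 12.56 in parental arrays. The brightest Lamp2 probe set gave 0.20 (adjusted p = 0.138), another gave 0.09, and neither was called. The other 2 gave 0.74 each and were called (adjusted p = 0.0114 and 0.0122), as was the mean of all 4 (0.44, adjusted p = 0.0106). Lamp2 transcripts end in alternative last exons, and which of them each probe set reads was not analysed here.

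The transcription factors of the list were not called between tumour lines and parental arrays. Tfeb read 7.96, 8.04, 8.05 and 7.89 in tumour lines, 7.77 in the library labelled GFP-transfected and 7.79, 8.07 and 7.97 in parental arrays. The groups overlapped, with a difference of 0.05 (SE 0.09, limma adjusted p = 0.736). Tfe3 read 9.82, 9.63, 9.73 and 9.69 in tumour lines, 9.29 in the library labelled GFP-transfected and 9.73, 9.79 and 9.68 in parental arrays, and it overlapped as well (-0.01, SE 0.07, adjusted p = 0.907). Array levels say nothing of where in the cell these proteins are. Sqstm1, the autophagy receptor p62, read 11.13, 11.45, 11.48 and 11.21 in tumour lines, 11.04 in the library labelled GFP-transfected and 11.32, 11.27 and 11.28 in parental arrays. Its tumour lines lay on both sides of the parental arrays (0.03, SE 0.10, adjusted p = 0.869). Grn, which encodes progranulin, a secreted and lysosomal protein, read 12.59, 12.81, 13.09 and 12.94 in tumour lines, 11.65 in the library labelled GFP-transfected and 12.38, 12.41 and 12.57 in parental arrays. Tumour line 3 lay just above the highest parental array, and the mean difference was 0.40 (SE 0.12, 1.32-fold, limma adjusted p = 0.0284). The other 2 Grn probe sets were called higher too (0.54 and 0.63), while the call ended without parental array 1 or 2, or without tumour line 5 or 6 (adjusted p = 0.0506 to 0.106).

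**Figure D3:**
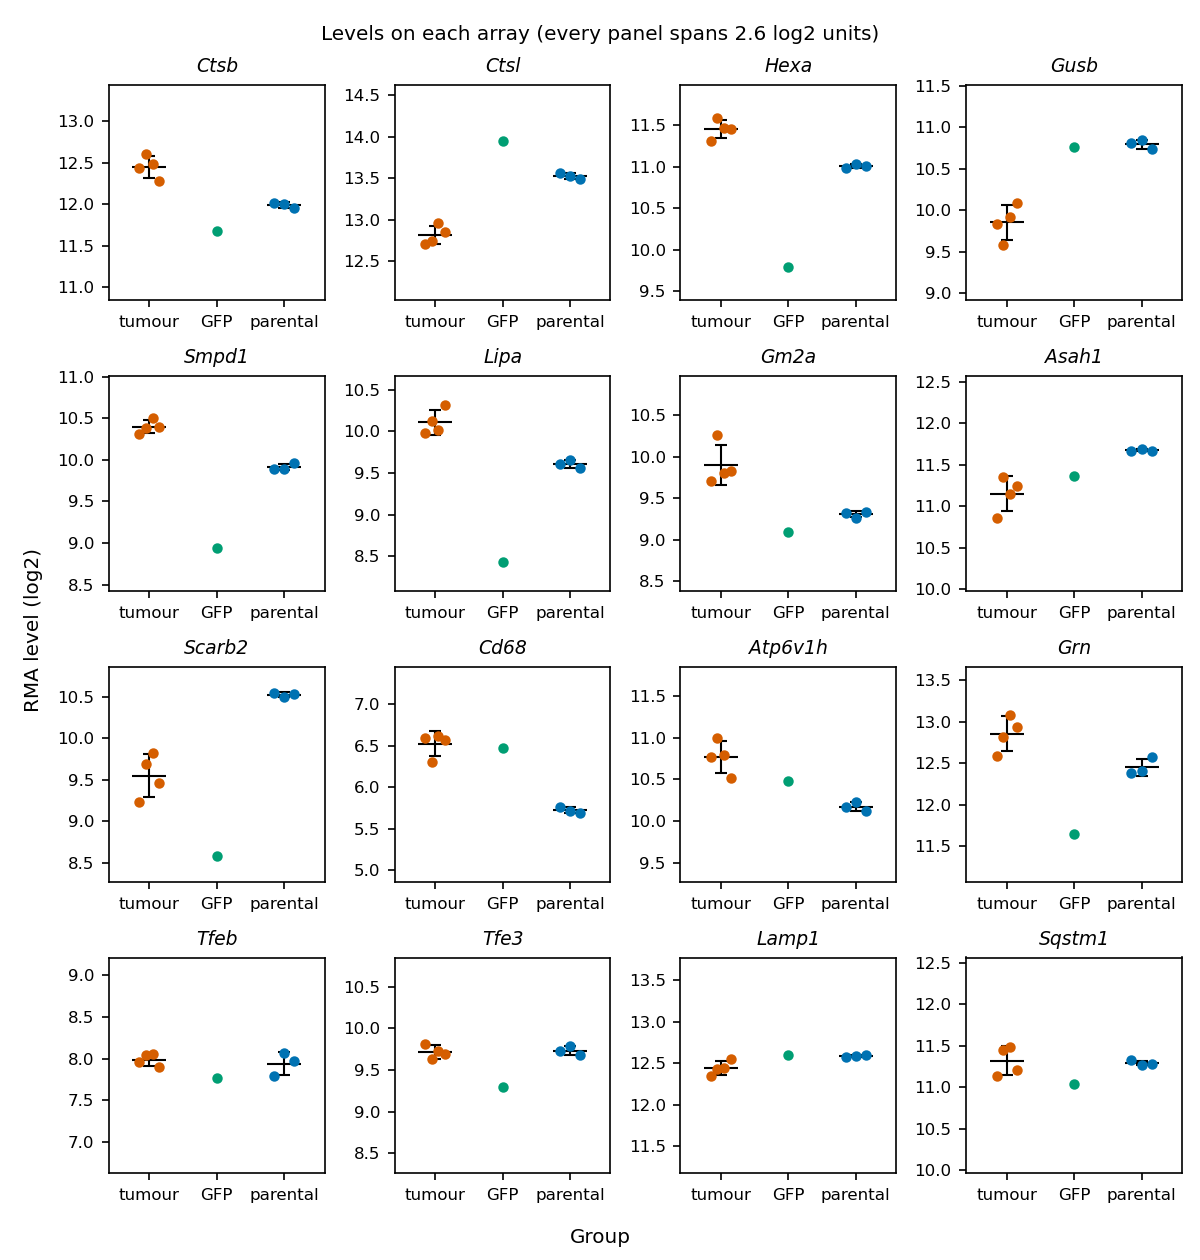
RMA level (log2) on each array for 16 lysosomal genes, with tumour lines in orange, the library labelled GFP-transfected in green and parental arrays in blue. Lines are group means and bars the SD (n = 4 and n = 3). Each panel spans the same number of log2 units at its own height. Scarb2 is lower and Cd68 higher in both other groups than in parental arrays, Ctsl lies on opposite sides of them, and Tfeb overlaps between tumour lines and parental arrays.

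The library labelled GFP-transfected showed a more one-sided pattern. Of the 36 genes, 2 were higher than in parental arrays (Ctsl and Cd68) and 12 were lower, against 7.43% and 8.66% of all genes. The called share was 38.9%, against 16.1% of all genes. Lower by 2-fold or more were Scarb2 (-1.95, SE 0.20), Arsb (-1.53, SE 0.10), Hexa (-1.21, SE 0.12), Lipa (-1.18, SE 0.14) and Ctsf (-1.17, SE 0.27), with limma adjusted p-values of 0.0192 or lower. These 5 make up 13.9%, against 3.90% of all genes called lower by that much. With probe sets averaged per gene, Arsb gave -0.76 and Ctsf -0.60 (adjusted p = 0.0518, not called), so neither reached 2-fold. Smpd1 (-0.98), Ctsa (-0.81), Grn (-0.81), Psap (-0.78), Atp6v0d1 (-0.74), Lamp2 (-0.63) and Tfe3 (-0.44) were lower by less. With probe sets averaged, Smpd1 gave -0.64 and Ctsa -0.41, both still called. The median difference over the 36 was -0.27, against 0.00 over all genes. This array was the lowest of the 8 for 24 of the 36 genes (66.7%), against 21.4% of all genes, and the highest for 1, Ctsl (22.0% of all genes). It is 1 array, assumed to vary like the others, and any fault of that sample enters every one of these values. Its mean correlation over genes was 0.9736 with parental arrays and 0.9377 with tumour lines.

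Some genes lay on opposite sides of the parental arrays in the tumour lines and in the library labelled GFP-transfected, 2 comparisons that share those arrays. Hexa (0.45 and -1.21), Psap (0.42 and -0.78), Smpd1 (0.48 and -0.98), Lipa (0.50 and -1.18) and Grn (0.40 and -0.81) were called higher in tumour lines and lower in that library. Ctsl was called the other way round (-0.71 and 0.42). Scarb2 (-0.98 and -1.95), Ctsa (-0.25 and -0.81) and Arsb (-0.20 and -1.53) were lower in both, and Cd68 (0.80 and 0.75) was higher in both. The call of Ctsl in the library labelled GFP-transfected (adjusted p = 0.048) ended without any 1 of the 3 parental arrays (adjusted p = 0.0941 to 0.118), without tumour line 6 (0.065), and with the mean of its probe sets (0.0712). That of Ctsf also ended without any 1 parental array (adjusted p = 0.0518 to 0.0581), and that of Tfe3 likewise (0.0523 to 0.0737). Lamp2 was not called there without parental array 1 (0.0522) or with probe sets averaged (-0.52, adjusted p = 0.0592), nor Grn without parental array 3 (0.0564).

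Set directly against the library labelled GFP-transfected, the tumour lines were higher for 15 of the 36 genes and lower for 3, Ctsl (-1.13), Gusb (-0.91) and Tpp1 (-0.50). In all 18 of 36 were called, against 30.3% of all genes, of which 14.0% were higher and 16.4% lower. With probe sets averaged, Ctsl gave -0.55, and Tpp1 gave -0.33 and was not called (adjusted p = 0.0837). The largest differences were those of Lipa (1.68, SE 0.14, 3.2-fold), Hexa (1.65, SE 0.11, 3.15-fold), Smpd1 (1.46, SE 0.10, 2.76-fold) and Arsb (1.33, SE 0.10, 2.52-fold). Grn (1.21), Psap (1.20) and Ctsf (1.17) also passed 2-fold, so that 7 of 36 did (19.4%), against 6.66% of all genes called higher by that much. Limma adjusted p-values of these 7 were 0.00875 or lower. Averaging probe sets took Arsb (0.71) and Ctsf (0.59) below 2-fold. Tfe3 was higher in tumour lines by 0.42 (SE 0.10, adjusted p = 0.0149), and Tfeb was not called (0.22, adjusted p = 0.244). The median over the 36 was 0.40. This comparison uses the same tumour-line arrays as the first and rests on 1 array on the other side.

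The 4 tumour lines differed among themselves more than the parental arrays did. The median SD over the 36 genes was 0.152 among tumour lines and 0.045 among parental arrays, and over all genes it was 0.128 among tumour lines and 0.080 among parental arrays. Whether the parental RNA came from different cultures is not stated, and its spread may be technical. Glb1 varied most (SD 0.46), followed by Ctsf (0.36), and Arsb least (0.05). Tumour line 5 was the highest of the 4 for 19 genes and line 3 the lowest for 18. The same counts over all genes were not made. Set against the parental mean, the median over the 36 genes was 0.07, 0.16, 0.18 and 0.06 in lines 3, 4, 5 and 6. Over all genes it was 0.0105, 0.0152, 0.0078 and 0.0026 in these lines.

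The differences of the genes whose promoters were searched can be set beside the E-box core. Of the 11 genes with the core, 1 rose in tumour lines (Arsa) and 4 fell (Ctsa, Ctsl, Glb1 and Mcoln1), with differences from -0.79 to 0.30 and a median of -0.15, where 16.6% of all genes were called higher and 19.4% lower. Of these 5 calls, those of Arsa, Ctsa, Glb1 and Mcoln1 ended without any 1 of the 3 parental arrays. Of the 21 measured genes with a window and no core, 9 rose and 4 fell, with a median of 0.24. The 5 genes with the longer form, printed above, had 0 rises and 2 falls and a median of -0.16. Lamp1, with 4 copies, differed by -0.15. In the library labelled GFP-transfected the median was -0.36 for genes with the core and -0.21 for those without. No difference between these sets was tested.

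Other genes of the pathway were counted from 8 lists of textbook members. Of 94 measured, 43 rose, 14 fell and 37 were not called in tumour lines, with a median difference of 0.23. The counts of each list stand beside shares over all genes of 16.6% higher and 19.4% lower for tumour lines. Other lysosomal hydrolases included the strongest rises. Of 17, 8 rose and 1 fell, among them Man2b1, lysosomal alpha-mannosidase (2.49, SE 0.09), Manba, beta-mannosidase (2.29, SE 0.26), and Lgmn, the asparaginyl protease legumain (0.88, SE 0.14). In the library labelled GFP-transfected the median difference of these 17 was -0.49, against -0.0017 over all genes. It was 0.18 over the list of other membrane proteins, -0.09 over that of other V-ATPase genes and -0.03 over all 94. The list of 12 other membrane proteins, which also holds the soluble Npc2, had 8 rises and 0 falls. Among the rises were Npc1, the cholesterol exporter (0.84), Mfsd8 (0.68) and the acetyltransferase Hgsnat (0.45). The call of Mfsd8 ended with the mean of its probe sets (adjusted p = 0.0956). Npc1 was not called without parental array 2 or 3 (adjusted p = 0.0521 and 0.0589). Of 13 other V-ATPase genes 7 rose and 3 fell, with Atp6v0e (1.0) and the accessory subunit Atp6ap1 (0.97) ahead of Atp6v1c1 (0.57), while differences in the library labelled GFP-transfected ran from -0.24 to 0.34.

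Genes of enzyme delivery moved both ways, 4 up and 4 down of 10. Igf2r, the cation-independent mannose 6-phosphate receptor, fell by 1.81 (SE 0.11), and the sorting receptor Sort1 by 0.70 (SE 0.07), while M6pr, the cation-dependent receptor, rose by 0.67 (SE 0.06). All 3 moved the same way in the library labelled GFP-transfected (-0.99, -0.52 and 0.43), though the call of M6pr there ended without parental array 1 or 2 (adjusted p = 0.0547 and 0.0524). Of 20 autophagy genes 9 rose and 0 fell, with Gabarap, an ATG8 family protein (1.11), Wipi1 (1.05) and Atg5 (0.87) largest. Gabarap was lower in the library labelled GFP-transfected (-1.25). Of 17 genes of mTORC1 control at the lysosome 6 rose and 5 fell, led by a fall of the GTPase Rragd (-2.71, SE 0.14, and -0.90 with the mean of its probe sets) and a rise of Lamtor4 (1.32, SE 0.11). Fnip1 rose by 0.76. Of the MiT/TFE genes outside the list, Mitf rose by 2.18 (SE 0.11) in tumour lines and, in the library labelled GFP-transfected, by 2.36 (SE 0.16). With the mean of its probe sets it rose by 1.32 in tumour lines and by 1.34 in that library. Tfec was not called. Of 3 cystatins, inhibitors of cysteine cathepsins, 0 rose and 1 fell in tumour lines, Cst6 (-0.48). The limma adjusted p-values of the named calls in this and the preceding paragraph were 0.0183 or lower.

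**Figure D4:**
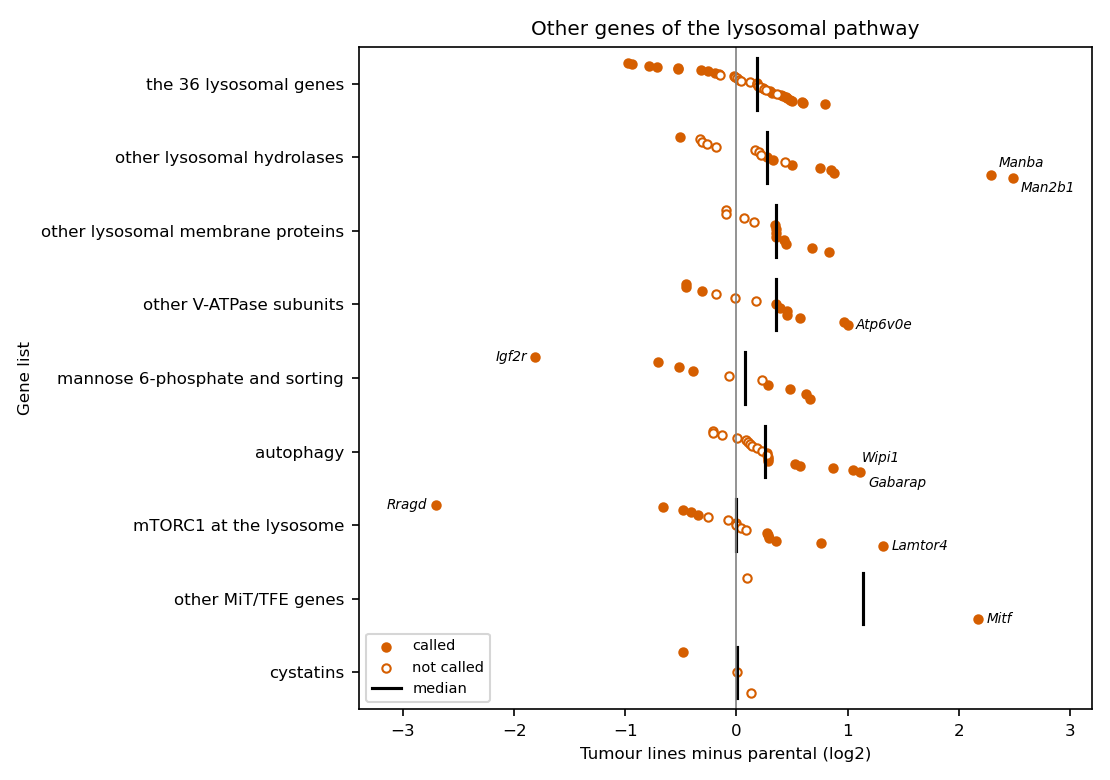
Difference between tumour lines and parental arrays (log2) of each measured gene in the 36 lysosomal genes and in 8 other lists of the pathway, filled where limma called it, with the list median as a bar and genes with a called change of 2-fold or more named. Man2b1, Manba and Mitf stand to the right of 2 and Rragd to the left of -2, beyond the range of the 36 genes.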

How the data were processed

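The values are log2 levels as deposited, 1 for each probe set on each of the 8 arrays. The authors used RMA and Partek, per the submitters' processing notes, without versions. RMA subtracts background and gives all arrays one distribution, so levels are relative. It also draws weak signals together, so differences at weak signal may be understated. The genome build and scan batches are not given in the sources used here. Of 45101 probe sets, 34945 carried 1 gene symbol, and each of 18193 genes took its brightest probe set. Comparisons used limma 3.58.1 in R 4.3.3 with all arrays in the fit (lmFit, eBayes, two-sided, Benjamini-Hochberg over all genes), tested on simulated data. The tumour lines may share a transfected stock, and p-values measure only the spread between these arrays.

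The genes and lists were chosen with earlier results of these data known. All 36 genes are accounted for by class. Values of every array were set for genes called with a change of 2-fold or more and for Tfeb, Tfe3, Lamp1, Ctsd and Sqstm1, and those of other genes were added after their values were seen. Up to 3 called genes per other list were named by size of change. Alternatives averaged the probe sets of a gene, omitted those ending in _x_at or _s_at, kept only brighter genes, changed the variance prior, weighted, renormalized or centred the arrays, left out each array, or counted the library labelled GFP-transfected among the parental arrays.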

Additional observations from a re-analysis of the deposited data

Results flagged for a closer look

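In 2 of 36 genes, 1 tumour line stood farther from the other 3 than Dixon's critical value for 4 samples allows, which chance alone gives in about 1 in 20 genes. Lamp2 read 13.00 in tumour line 5, against 12.71 in the next highest line. Cd68 read 6.30 in tumour line 4, against 6.58 in the next lowest line, and still lay above all parental arrays.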

How the results depend on the processing

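Of the 21 genes called in tumour lines, 8 were called under every alternative that gave a value (Ctsb, Gusb, Psap, Tpp1, Asah1, Smpd1, Gm2a and Cd68). The calls of Hexa, Lipa and Scarb2 ended only where the GFP-labelled library was counted among the parental arrays, and its Mycn level goes against its label. Of the 15 genes not called in tumour lines, 10 were never called. Leaving out 1 array in turn gave 8 to 13 rises and 5 to 8 falls in tumour lines, with 5 falls without any 1 parental array, and 1 to 2 rises and 9 to 14 falls in the library labelled GFP-transfected. That library had 1 rise among genes above the median level. The median difference of tumour lines was 0.10 with probe sets averaged per gene and 0.037 among genes above the median level, where fewer genes enter, and 0.12 to 0.20 with 1 array left out. The median SD among tumour lines was 0.121 with the mean of probe sets. The sign of Arsb turned in tumour lines with the GFP-labelled library counted among the parental arrays (0.19). Arsb read 8.74 in that library and averaged 10.27 in parental arrays. For Gusb the sign turned in that library with the mean of its probe sets (0.40). There its brightest probe set gave -0.03 and its other one 0.84. Why the Gusb probe sets differ was not tested. Leaving that library out gave the same counts in tumour lines. No paired analysis was possible because no label pairs a tumour line with a parental array. Signal over background was not given, so dim genes such as Ctsh, Ctss and Ctsz have no stated detection limit.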

Other observations

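Marker lists of other cell types were counted in the same fit of tumour lines against parental arrays. In that fit 16.6% of all genes were called higher and 19.4% lower. Of 7 osteoclast markers, 1 rose, the fusion protein gene Dcstamp (0.37, SE 0.08), and 1 fell, the gelatinase gene Mmp9 (-0.67, SE 0.07). Their summed signal was 402 to 421 in tumour lines, 370 in the library labelled GFP-transfected and 406 to 429 in parental arrays. The 7 endothelial markers differed by -0.15 to 0.22, and 5 of them lay below the array median on all 8 arrays. Their summed signal was 268 to 476 in tumour lines, 334 in the library labelled GFP-transfected and 268 to 307 in parental arrays. In the library labelled GFP-transfected 1 of the 7 was called, against 16.1% of all genes. It is Cdh5 (1.96), named after its value was seen. Of 12 neural crest markers, 2 rose, Msx1 among them (1.05, SE 0.19, and 0.38 without probe sets ending in _x_at or _s_at), and 3 fell, led by the transcription factor genes Zic1 (-4.48, SE 0.74) and Pax3 (-1.17, SE 0.18). The limma adjusted p of the named genes was 0.0088 or lower, and 0.0304 for Msx1 without those probe sets.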
